A study of Mus musculus with 4 samples.

Results

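The genes for 10 chemokines, small secreted proteins that attract leukocytes, were followed through the epithelium of the mouse mammary gland: Cxcl1, Cxcl2, Cxcl5, Cxcl10, Cxcl14, Cxcl16, Ccl2, Ccl5, Ccl7 and Ccl20. They are 10 of the 31053 genes in the deposited tables, and they were chosen by name as chemokines seen in the epithelial cells of these same libraries. Their levels in each class of cells are therefore a description without a test. Each of the 10 genes was read as its sum of unique molecular identifiers (UMIs, one per captured transcript) per library and class, and as CPM, the gene's UMIs per 1000000 UMIs of that class in that library.

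The series used droplet-based 3′ RNA sequencing of mammary epithelial cells from the fourth glands of FVB mice at postnatal week 9. It was made to find how mammary stem cells respond when Tfap2c, the gene of the transcription factor AP-2γ, is conditionally deleted. All mice, controls included, were Tfap2cfl/fl / Krt5-CreERT2, so that both Tfap2c copies are floxed and Cre is made only where the Krt5 promoter is active and acts only once 4-hydroxytamoxifen (4OHT) is given. Daily injections from week 4 held corn oil, the vehicle (2 libraries), or 4OHT (2 libraries), and the series text speaks of 2 mice of each condition. Krt5 marks basal cells, so a luminal cell would lose Tfap2c only by descent from a cell that had used this promoter, and no untreated, Cre-free or unfloxed mice were among the samples. The injection course is given as 5 days in one label and as a week in others, and the series text writes Krt5-Cre where the sample labels have Krt5-CreERT2.

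The 4 libraries held 3546 to 5545 cells and 17351950 to 22017878 UMIs each, and 17832 of 18223 cells had at least 1000 UMIs and were kept. Keratin sums placed 7028 of them as basal (1421 to 2178 per library), 5629 as luminal progenitor (1132 to 1770) and 1168 as hormone-sensing luminal cells (151 to 447). Between the keratin rules lay 2336 kept cells with both sums within 3 times of each other: 342 and 284 in the corn oil libraries, 837 and 873 in the 4OHT libraries. Close to the basal limit were 773 basal cells with a basal sum of 3 to 4 times the luminal one and 937 unclassed cells at 2 to 3 times. Among the epithelial classes, markers that the rules did not use were highest in their own class: Myh11 was at 175 to 243 CPM in basal cells and at most 6.55 in both luminal classes, Kit at 9.02 to 14.0 in progenitors and at most 0.39 in the other epithelial classes, and Prlr at 362 to 639 in hormone-sensing cells and at most 44.9 elsewhere in the epithelium. Pairs of libraries shared 18 to 36 cell barcodes. Tfap2c itself was at 389 and 285 CPM in basal cells of the corn oil libraries and at 285 and 325 CPM in those labelled 4OHT, so it was not clearly lower there (log2 fold change −0.08, SE 0.25, adjusted p = 0.9995, quasi-likelihood test of edgeR). A 3′ count does not show whether an internal exon was lost, so the label 4OHT rests on the submitters' word, and the libraries are called 4OHT-labelled below.

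As background, chemokines bind receptors coupled to G proteins on leukocytes and set the direction in which those cells move. Cxcl1, Cxcl2 and Cxcl5 act through Cxcr2 and draw neutrophils, Ccl2 and Ccl7 act through Ccr2 and draw monocytes, Cxcl10 acts through Cxcr3 on activated T cells, Ccl5 draws T cells and other leukocytes, and Ccl20 acts through Ccr6. Several of these genes are known targets of NF-κB, and Cxcl10 is a classical interferon target. Cxcl14 and Cxcl16 differ from these: Cxcl14 is made constitutively by many epithelia, and Cxcl16 is made as a membrane protein that metalloproteases such as Adam10 can shed. In the mammary gland, macrophages and other leukocytes surround the ducts and take part in their growth and remodelling.

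Cxcl14 was a basal gene in all 4 libraries. Its level in basal cells was 1391 and 2181 CPM in the corn oil libraries and 1579 and 1989.7 CPM in the 4OHT-labelled ones. In luminal progenitors it was between 30.8 and 39.1 CPM, and in hormone-sensing cells between 21.2 and 30.1 CPM. The basal and luminal values lay far apart, while the basal values of the corn oil libraries enclosed those of the 4OHT-labelled ones. All 4 progenitor sums lay below all 4 basal sums for 32.2% of the 11434 genes compared, so the ordering by itself is common. After each cell was thinned to 2000 UMIs, 57.3% (exact 95% interval 54.7 to 59.8) of basal cells in corn oil replicate 1 held a Cxcl14 UMI, and 68.9% (66.7 to 71.1), 62.4% (59.8 to 65.1) and 63.9% (61.6 to 66.1) in the other libraries, with 70.6%, 75.4%, 72.4% and 71.1% unthinned. In progenitors the thinned share was 4.29% to 6.10%, against 0 of 57, 1 of 30 and 3 of 64 cells of the endothelial gate in the 3 libraries with more than 6 such cells; median depth was 2827.5 to 5152.5 UMIs in basal cells and 1846 to 2978 in these endothelial cells. The endothelial level was 38.3, 8.91, 13.7 and 27.0 CPM over the 4 libraries, from only 1 to 9 UMIs. Progenitors were above it in all libraries but corn oil replicate 1. Among them 3, 2, 6 and 3 cells held at least 10 Cxcl14 UMIs. The gate thus does not settle the luminal values, and they are not read as expression. Over the 12 sums (3 classes in 4 libraries) and the 5220 genes with at least 20 CPM in a class, the profiles most like that of Cxcl14 on the log2(CPM + 1) scale were those of Acta2 (r = 0.998), Rbpms (r = 0.997) and Krt14 (r = 0.997); Acta2 and Krt14 are part of the rule for basal cells, and the 12 sums share libraries.

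Cxcl16, the membrane-bound chemokine, was highest in luminal progenitors. Progenitors were at 146 and 142 CPM in the corn oil libraries and at 163 and 180.5 CPM in the 4OHT-labelled ones. Basal cells were at 73.6, 76.8, 95.2 and 90.5 CPM, in that library order, and hormone-sensing cells at 29.3, 54.7, 61.8 and 36.6 CPM. No progenitor sum overlapped a basal sum, and no basal sum overlapped a hormone-sensing sum. A position of all progenitor sums above all basal sums was found for 12.9% of the 11434 genes. The thinned share of cells with a UMI was 23.2% to 29.2% in progenitors, 12.8% to 16.9% in basal cells and 5.28% to 8.90% in hormone-sensing cells. In the endothelial gate it was 14.0% of 57, 6.67% of 30 and 9.38% of 64 cells, and the level there was 38.3, 89.1, 41.2 and 42.0 CPM, from 1 to 20 UMIs. The hormone-sensing values were within or below that range over the 4 libraries and are not read as expression. In 4OHT replicate 1, however, the hormone-sensing level was above the endothelial one of the same library (41.2 CPM, 6 UMIs). Whether the endothelial cells made Cxcl16 themselves was not tested, so the gate does not settle the hormone-sensing level. In corn oil replicate 2 neither the basal level nor the basal share was above the endothelial one. Over all libraries the progenitor level was 158 ± 17.6 CPM (SD, n = 4). The profiles most like that of Cxcl16 over the 12 sums were those of Cited2 (r = 0.966), Cd81 (r = 0.963) and Bin1 (r = 0.962). The gene lies on chromosome 11 from 70453983 to 70459984 on the minus strand (GRCm38, GENCODE M21) and overlaps Zmynd15 on the opposite strand, and the counting's use of strand is not given in the sources used here.

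**Figure D1:**
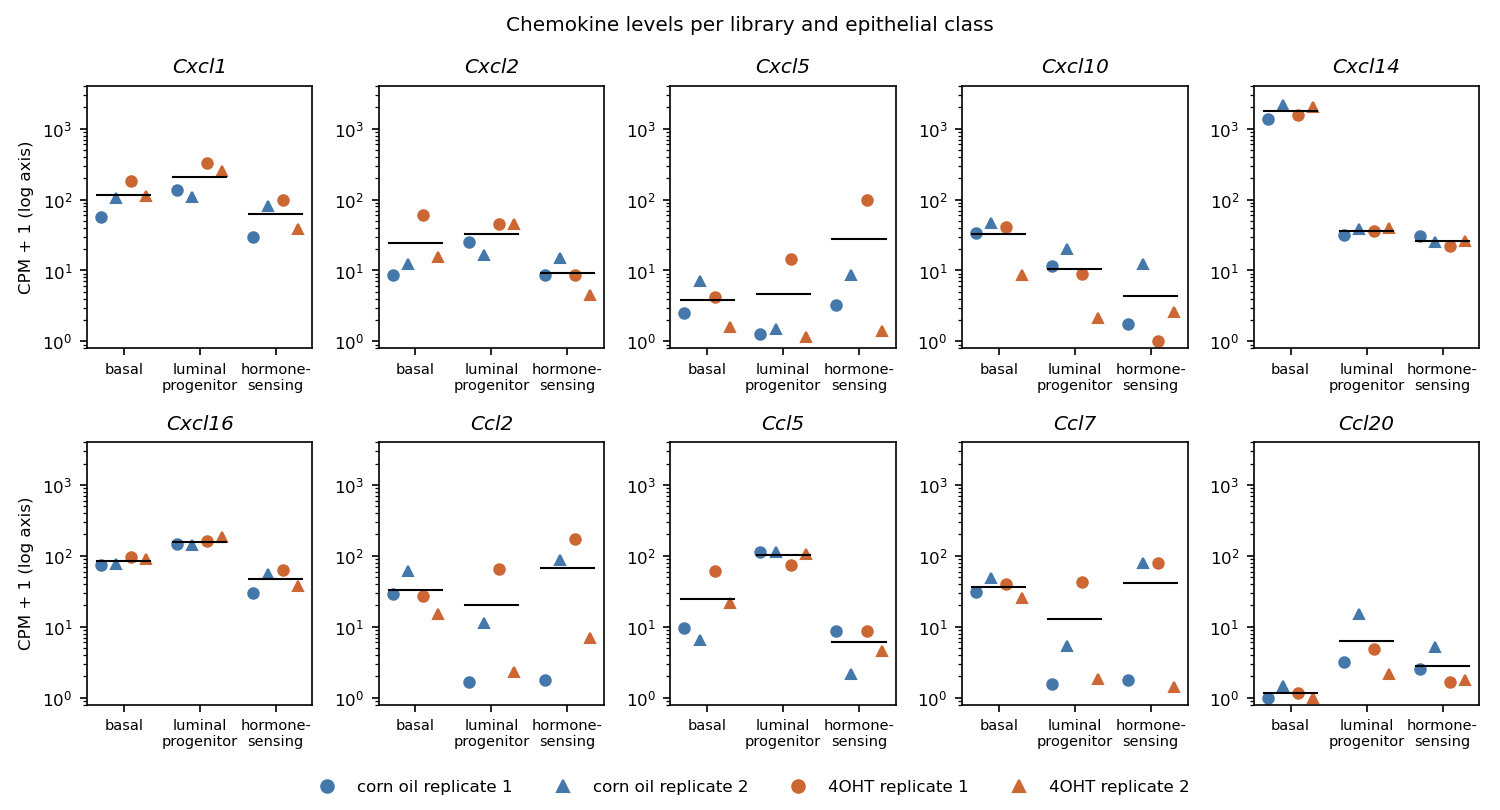
Level of each chemokine (CPM + 1, log axis) in basal, luminal progenitor and hormone-sensing cells. Each point is 1 library (circles replicate 1, triangles replicate 2, blue corn oil, orange 4OHT-labelled) and each bar the mean of 4 libraries; Cxcl14 stands at 1391 to 2181 CPM in basal cells, Cxcl16 and Ccl5 are highest in progenitors, and Ccl2, Ccl7 and Cxcl5 spread widely between libraries in luminal cells.

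Cxcl1 and Cxcl2, the neutrophil-attracting pair, were found in basal and luminal progenitor cells, but not only there. In the endothelial gate Cxcl1 was at 192, 1149, 357 and 444 CPM over the 4 libraries, from 5 to 258 UMIs. Cxcl2 was there at 1035, 84.6, 254 and 89.9 CPM, from 19 to 37 UMIs. These levels were above the basal and progenitor ones in every library. In progenitors Cxcl1 was at 137 and 108 CPM in the corn oil libraries and at 323 and 256 CPM in the 4OHT-labelled ones. In basal cells it was at 56.6 and 103 CPM against 181 and 112 CPM, and in hormone-sensing cells at 28.5, 80.6, 96.6 and 37.8 CPM over the 4 libraries. Both 4OHT-labelled libraries were thus above both corn oil libraries in progenitors and, by a small margin, in basal cells, while the hormone-sensing values overlapped. The Cxcl1 values also overlapped in unclassed cells with at least 5 UMIs in both keratin sums, at 67.7 and 69.3 against 78.2 and 62.0 CPM. Cxcl2 was at 23.9 and 15.4 CPM against 44.6 and 44.6 CPM in progenitors. In basal cells Cxcl2 was at 7.66 and 11.3 CPM against 59.1 and 14.4 CPM, where 4OHT replicate 1 stands apart from the other libraries. Within that library, 8 of 1421 basal cells with at least 10 Cxcl2 UMIs each held 212 of its 351 Cxcl2 UMIs. One basal cell of corn oil replicate 2 held 226 of its 674 Cxcl1 UMIs; without the cell with the most in each library, basal Cxcl1 was at 50.9, 68.6, 171 and 106 CPM and progenitor Cxcl1 at 128, 98.8, 291 and 244 CPM. Cxcl1 was higher in progenitors than in basal cells within every library, but the groups of 4 overlapped.

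The Cxcl1 and Cxcl2 genes are neighbours on chromosome 5. Cxcl1 runs from 90891241 to 90893115 and Cxcl2 from 90903871 to 90905938, both on the plus strand, with 10755 bases between them (GRCm38, GENCODE M21). Of the 2159 50-base stretches of Cxcl2 transcripts, 126 also occur in Cxcl3, so reads could be split between these; Cxcl1 shares none. RefSeq promoter windows (GRCm38.p6) were at hand for 5 of the 10 genes: Cxcl1, Cxcl2, Cxcl10, Cxcl14 and Ccl20. The 250 bases before each start were searched on both strands for a core κB motif (GGGA, any 2 bases, then TTCC), which NF-κB dimers bind. The stretches around the matches of Cxcl1 and Cxcl2 are shown because these genes were read in the same cells. Capitals mark the matches, which lie on both strands and overlap in each gene; the first base in capitals lies 71 bases before the start of Cxcl1 and 97 bases before that of Cxcl2. The first stretch is chr5:90891154-90891204 and the second chr5:90903782-90903832, both on the plus strand.
Cxcl1: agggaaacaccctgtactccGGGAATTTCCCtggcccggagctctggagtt
Cxcl2: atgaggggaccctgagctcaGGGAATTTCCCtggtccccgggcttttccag
Of all 32851 promoters in the table, 1.21% hold this motif in the same length. A core form of the AP-2 motif (GCC, any 3 bases, then GGC) occurs in 13.7% of all promoters and in none of these 5, which says only that these letters are not in the stretch searched.

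The same cells tended to hold both transcripts. In progenitors thinned to 2000 UMIs, a Cxcl2 UMI was found in 8.0% of cells with a Cxcl1 UMI and 1.43% of cells without one in corn oil replicate 1. The same shares were 8.47% and 0.61% in corn oil replicate 2, 15.4% and 1.97% in 4OHT replicate 1, and 12.5% and 1.23% in 4OHT replicate 2. In basal cells they were 5.88% and 0.81%, 7.02% and 0.61%, 16.9% and 1.05%, and 9.66% and 0.42%, in the same order. Every library and both classes thus gave the same direction. Summed over the libraries, 111 of 916 progenitors with Cxcl1 held Cxcl2, against 59 of 4359 without. Cells with a Cxcl1 UMI also held more UMIs of a list of 16 NF-κB subunits, feedback inhibitors and partners: 25.7, 17.5, 18.5 and 23.9 UMIs per progenitor of 2000, against 14.5, 7.86, 9.41 and 12.1 in progenitors without Cxcl1. For a list of 16 genes known to respond to cell preparation the same means were 29.4, 17.7, 24.9 and 24.5 against 23.0, 12.8, 18.4 and 19.7 UMIs. Both lists were higher in the cells with Cxcl1 in each library. For the NF-κB list this was not particular to Cxcl1. Progenitors with Cxcl16 held 20.3, 12.4, 13.4 and 18.7 UMIs of it, against 15.1, 7.83, 10.7 and 12.5 without Cxcl16. Basal cells with Cxcl14 also held more of it in each library, but progenitors with Cxcl14 did not in the corn oil libraries. Over the 12 sums, Csf3, which encodes a growth factor for neutrophils, had the profile most like that of Cxcl1 (r = 0.922) and that of Cxcl2 (r = 0.907), and the pair itself had r = 0.883.

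**Figure D2:**
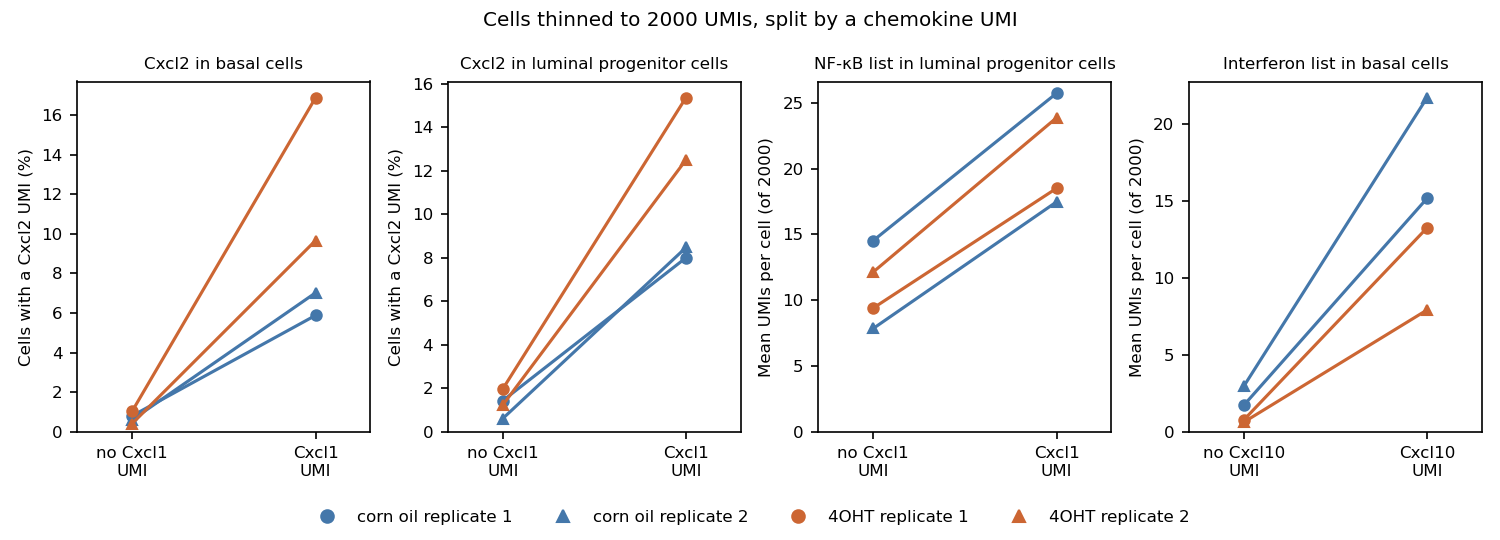
Cells thinned to 2000 UMIs, split by whether they held a UMI of one chemokine; each line joins the 2 values of 1 library. The first and second panels give the percent of basal and progenitor cells with a Cxcl2 UMI, the third the mean UMIs of the NF-κB list in progenitors, and the fourth those of the interferon list in basal cells; in all 4 libraries the value is higher in the cells that held the chemokine.

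Cxcl10, the interferon target, was mostly basal within the epithelium. Basal cells were at 32.4 and 46.3 CPM in the corn oil libraries and at 39.8 and 7.59 CPM in the 4OHT-labelled ones. Progenitors were at 10.5, 19.0, 7.86 and 1.13 CPM and hormone-sensing cells at 0.77, 11.2, 0 and 1.57 CPM, where 0 UMIs in 4OHT replicate 1 allow up to 1.93 CPM. The endothelial gate was at 0, 191, 0 and 77.9 CPM over the 4 libraries, from 0 to 43 UMIs. Its 0 UMIs in replicate 1 of each group allow up to 115 and 20.6 CPM. It was thus above basal cells in replicate 2 of each group, and its part in the basal values was not tested. 4OHT replicate 2 was the lowest library in basal and progenitor cells. Few cells made up these sums: in corn oil replicate 1 one basal cell held 110 of 262 Cxcl10 UMIs, and one progenitor held 69 of 76. Basal cells with a Cxcl10 UMI held 15.2, 21.7, 13.3 and 7.92 UMIs of a list of 18 interferon response genes that does not include Cxcl10, against 1.73, 2.96, 0.77 and 0.63 in basal cells without one. These means rest on 28, 40, 19 and 13 cells with Cxcl10, and their direction was the same in the 4 libraries. It was not particular to Cxcl10. Basal cells with Ccl2 held 14.1, 14.1, 4.76 and 2.42 UMIs of the list, against 1.68, 2.81, 0.85 and 0.64 without. Cxcl14 had the same direction in the 4 libraries, but Ccl7 did not in 4OHT replicate 2 (0.19 against 0.69). In that library the 3 progenitors with Cxcl10 held 0 UMIs of the list, against a mean of 0.78 without. A stretch of the Cxcl10 promoter is shown because it holds a core interferon-response motif (GAAA, any 2 bases, then GAAA) beside the κB motif. It is chr5:92349019-92349122, written along the minus strand on which the gene lies (92346638 to 92348889), with the interferon-type match first, 213 bases before the start, and the κB match after it, 159 bases before the start, both in capitals.
Cxcl10: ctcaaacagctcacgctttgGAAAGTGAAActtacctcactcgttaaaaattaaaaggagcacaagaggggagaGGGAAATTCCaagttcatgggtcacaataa
The interferon-type letters occur in 2.98% of all promoters, among them also that of Cxcl14, 172 bases before its start. Over the 12 sums the profiles most like that of Cxcl10 were those of D3Ertd254e (r = 0.912), Arih1 (r = 0.911) and Nfat5 (r = 0.898). Cxcl10 overlaps Art3 on the opposite strand.

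Ccl2 and Ccl7, the monocyte-attracting pair, were found in basal cells of every library, while their luminal sums varied widely between libraries. Basal Ccl2 was at 28.3 and 60.6 CPM in the corn oil libraries and at 25.8 and 14.1 CPM in the 4OHT-labelled ones; basal Ccl7 was at 29.7, 48.0, 39.1 and 24.1 CPM over the 4 libraries. The endothelial gate held Ccl2 at 0, 49.0, 20.6 and 15.0 CPM, from 0 to 11 UMIs. Its Ccl7 was at 0, 4.45, 27.5 and 6.0 CPM, from 0 to 4 UMIs. In corn oil replicate 1 its 0 UMIs allow up to 115 CPM. Basal Ccl2 was thus not above this gate in 4OHT replicate 2 and not far above it in corn oil replicate 2 and 4OHT replicate 1. Progenitor Ccl2 was at 0.69, 10.2, 64.9 and 1.29 CPM, and hormone-sensing Ccl2 at 0.77, 85.9, 173 and 5.91 CPM. Single cells held most of the UMIs in 3 of the high luminal sums. In 4OHT replicate 1, 1 hormone-sensing cell held 260 of the 268 Ccl2 UMIs of its class, 115 of 123 Ccl7 and 146 of 152 Cxcl5 UMIs, and 1 progenitor held 379 of 545 Ccl2, 243 of 351 Ccl7 and 92 of 115 Cxcl5 UMIs. Both cells passed the luminal rule with luminal sums of only 5 and 7 UMIs, and they held 148 and 45 UMIs of the 7 fibroblast markers. In corn oil replicate 2, 1 hormone-sensing cell held 129 of 146 Ccl2 and 127 of 134 Ccl7 UMIs, with a luminal sum of 55 and 2 fibroblast UMIs. Progenitor Ccl2 of that library was spread instead, with 62 UMIs in 56 cells and at most 4 in a cell. Without the cell with the most, progenitor Ccl2 was at 0.41, 9.60, 19.8 and 0.48 CPM and hormone-sensing Ccl2 at 0, 10.1, 5.20 and 0 CPM. The 19.8 CPM of 4OHT replicate 1 was not spread over many cells. Progenitors with at least 10 UMIs, 2 for each gene, held 514 of its 545 Ccl2 and 319 of its 351 Ccl7 UMIs. Progenitors of that library without a fibroblast marker UMI were at 3.86 CPM for both genes.

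Ccl7 was found more often in basal cells that held Ccl2 than in those that did not. Among thinned basal cells with a Ccl2 UMI, 13.9%, 22.2%, 18.2% and 13.2% also held Ccl7 in the 4 libraries, against 1.68%, 2.59%, 2.82% and 1.53% of those without Ccl2. Cxcl10 went with Ccl2 in the same way, with Ccl2 in 28.6%, 27.5%, 10.5% and 23.1% of basal cells with Cxcl10 and in 1.95%, 4.62%, 2.40% and 1.96% of those without. These shares rest on few cells, between 2 and 20 with both transcripts in a library. Fibroblast marker UMIs were found in 2 of 36, 7 of 90, 0 of 33 and 0 of 38 basal cells with Ccl2, and in 2.17%, 5.78%, 1.25% and 3.12% of those without. For Ccl7 they were found in 0 of 29, 10 of 63, 2 of 42 and 0 of 32 basal cells with the transcript, and in 2.30%, 5.51%, 1.10% and 3.11% of those without. Without thinning, the 8.74% of basal cells with a fibroblast marker UMI in corn oil replicate 2 held 28.3% of its basal Ccl2, 29.9% of Ccl7, 39.3% of Cxcl10 and 49.4% of Cxcl1 UMIs, the last of these largely in the cell with 226 Cxcl1 UMIs, which held 1 fibroblast UMI. In the other libraries 2.67% to 4.95% of basal cells had such a UMI, and they held 5.26% to 8.30% of the Cxcl1 and 3.23% to 11.4% of the Ccl2 UMIs. Ccl2 (chromosome 11, 82035571 to 82037453) and Ccl7 (82045712 to 82047525) are neighbours on the plus strand with 8258 bases between them, and Ccl2 overlaps the gene model Gm17268 on the opposite strand. Over the 12 sums their profiles had r = 0.939, and each was the most like the other, in sums that share the single cells named above; next came Rarres2 (r = 0.849) and Dync1h1 (r = 0.828) for Ccl2, and Zfp644 (r = 0.863) and Rarres2 (r = 0.827) for Ccl7.

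Cxcl5, the third Cxcr2 ligand, had few UMIs in the epithelium. Basal cells held 12, 40, 19 and 4 UMIs in the 4 libraries, or 1.48, 6.12, 3.20 and 0.61 CPM. Progenitors held 2, 3, 115 and 1 and hormone-sensing cells 3, 13, 152 and 1, where the high counts are those of the 2 cells in 4OHT replicate 1. Cxcl5 lies on chromosome 5 from 90759360 to 90761624, on the same chromosome as Cxcl1 and Cxcl2, and 13 of 1876 of its 50-base stretches occur in other genes. Its most alike profiles, Rarres2 (r = 0.806), Ccl2 (r = 0.788) and Taf3 (r = 0.756), share the same 2 cells.

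Ccl5 was a progenitor gene carried by few cells with many transcripts each. Progenitors were at 112 and 113 CPM in the corn oil libraries and at 73.0 and 105 CPM in the 4OHT-labelled ones. Hormone-sensing cells were at 1.18 to 7.73 CPM. In progenitors only 48, 34, 75 and 41 cells per library held a Ccl5 UMI, with 16.9, 20.1, 8.17 and 16.0 UMIs each on average. The 17, 13, 17 and 12 progenitors with at least 10 Ccl5 UMIs held 739 of 813, 627 of 682, 487 of 613 and 587 of 655 of the UMIs. After thinning, 2.48%, 2.19%, 3.13% and 1.93% of progenitors held a UMI, against 1 of 57, 1 of 30 and 0 of 64 cells of the endothelial gate, so that the share by itself is not above that background. Ccl5 is best known from T cells, and a leukocyte marker UMI was found in 0 of 31, 1 of 24, 2 of 51 and 0 of 25 thinned progenitors with Ccl5. Among progenitors without Ccl5 it was found in 0.16% and 0.56% in the corn oil libraries and 0.38% in 4OHT replicate 1. The share was thus higher with Ccl5 in corn oil replicate 2 (4.17%) and 4OHT replicate 1 (3.92%), on very few cells. The part of leukocyte transcripts in progenitor Ccl5 was not tested. All 10 leukocyte markers were detected in progenitors, at a summed 1.38 and 2.64 CPM in the corn oil libraries and 5.47 and 0.80 CPM in the 4OHT-labelled ones, against 8460 and 5080 CPM in the leukocyte gates of the 2 libraries that had one.

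Basal Ccl5 was at 8.65 and 5.51 CPM in the corn oil libraries and at 59.6 and 20.5 CPM in the 4OHT-labelled ones. The groups did not overlap, and 4OHT replicate 1 was the highest. That library was also highest in other cells. The leukocyte gate was at 916 CPM there and at 31.5 CPM in corn oil replicate 2. The endothelial gate was at 0, 4.45, 357 and 0 CPM over the 4 libraries, and unclassed cells at 3.95, 54.3, 76.8 and 18.0 CPM. In the fibroblast gate it was not the highest (42.4 CPM, against 424 CPM in 4OHT replicate 2). The part of these cells' transcripts in the basal values was not tested. Again few cells counted: 2, 0, 9 and 4 basal cells held at least 10 Ccl5 UMIs, and these held 32 of 70, 0 of 36, 294 of 354 and 70 of 135 of the UMIs. None of the 11, 16, 25 and 23 thinned basal cells with Ccl5 held a leukocyte marker UMI; over all basal cells 9 of 10 such markers were detected, with Ptprc at 0, at a summed 1.61 and 3.82 CPM in the corn oil libraries and 3.87 and 0.76 CPM in the 4OHT-labelled ones. Cells with at least 5 UMIs in both keratin sums that no rule placed held Ccl5 at 3.88 and 5.77 CPM in the corn oil libraries and at 66.1 and 21.9 CPM in the 4OHT-labelled ones, so that here too both 4OHT-labelled libraries were above both corn oil libraries. There were 341, 282, 835 and 872 of these cells, and the part of such mixed cells in the basal values was not tested. Over the 12 sums the profiles most like that of Ccl5 were those of Trib1 (r = 0.938), Ccrl2, which encodes a chemokine-binding receptor (r = 0.934), and Tspan8 (r = 0.923). Ccl5 lies on chromosome 11 from 83525778 to 83530518 on the minus strand.

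Ccl20, the Ccr6 ligand, was found mostly in progenitors and was sparse there. Progenitors held 16, 86, 33 and 7 UMIs in the 4 libraries, or 2.20, 14.2, 3.93 and 1.13 CPM. Basal cells held 0, 3, 1 and 0 UMIs and hormone-sensing cells 2, 7, 1 and 2. The 7 UMIs of 4OHT replicate 2 came from 1 cell, and in corn oil replicate 2, the highest library, 28 cells held the UMIs. Counts of 0 to 3 UMIs in basal cells are at the limit that a count of 0 allows, so no fold is given. Ccl20 spans 83116766 to 83119167 of chromosome 1, plus strand.

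The order of the 3 classes thus differed from gene to gene. Within every library Cxcl14 and Cxcl10 were higher in basal than in progenitor cells, and Cxcl1, Cxcl16, Ccl5 and Ccl20 were higher in progenitor than in basal cells. The sums did not overlap for Cxcl14, Cxcl16, Ccl5 and Ccl20, and they overlapped for Cxcl1 and Cxcl10. For Cxcl2, Cxcl5, Ccl2 and Ccl7 the order of basal and progenitor cells changed between libraries. For Ccl2 and Ccl7 progenitors were higher only in 4OHT replicate 1. Among its cells without a fibroblast marker UMI, progenitors were at 3.86 CPM for both genes. Basal cells without one were at 25.7 CPM for Ccl2 and 39.1 CPM for Ccl7. In the other libraries too, basal cells without such a UMI were above progenitors without one for both genes. Cxcl14 is left aside here, as its luminal values are not read as expression. Hormone-sensing cells were below progenitors in every library for Cxcl1, Cxcl2, Cxcl16, Ccl5 and Ccl20. Of these, only Ccl20 had sums that overlapped. All 4 hormone-sensing sums lay below all 4 progenitor sums for 14.0% of genes. None of the 10 lay above them without overlap (20.7% of genes). Against basal cells, hormone-sensing sums were lower without overlap for Cxcl14 and Cxcl16 (27.8% of genes) and higher for the sparse Ccl20 (18.6%).

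Not all of these transcripts were epithelial. Of all UMIs in kept cells, the 3 epithelial classes held 88.8% for Ccl20, 83.5% for Cxcl14, 82.9% for Cxcl16 and 80.4% for Ccl5, but 55.4% for Cxcl1, 53.9% for Cxcl2, 39.9% for Cxcl10, 38.1% for Ccl7, 29.2% for Cxcl5 and 22.8% for Ccl2. The 130 cells of the fibroblast gate (2 to 86 per library), 0.73% of those kept, held 67.5% of the Ccl2, 62.9% of the Cxcl5, 54.7% of the Ccl7 and 36.2% of the Cxcl10 UMIs. Their Ccl2 level was 12611, 7227 and 8635 CPM in the 3 libraries with more than 2 such cells. In the same 3 libraries their Cxcl1 level was 4076, 8160 and 400 CPM, and they held 16.1% of all Cxcl1 UMIs. Cxcl1 was also high in the unclassed cells left after those with both keratin sums were set aside. These were 222, 367, 304 and 330 cells at 1287, 1003, 788 and 499 CPM. Unlike in progenitor and basal cells, both 4OHT-labelled libraries were below both corn oil libraries there. The 7 fibroblast markers were all detected in basal cells, at a summed 15.0 and 73.4 CPM in the corn oil libraries and 10.8 and 20.2 CPM in the 4OHT-labelled ones, with corn oil replicate 2 the highest library as it was for basal Ccl2 and Ccl7. In hormone-sensing cells the same sum was 243, 55.3, 1346 and 238 CPM, nearly all of it Dcn (243, 50.6, 1325 and 237 CPM). The part of fibroblast transcripts in the epithelial values was not tested. In a class sum, fewer cells with a transcript and less of it per cell cannot be told apart except where cells are counted, as above.

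**Figure D3:**
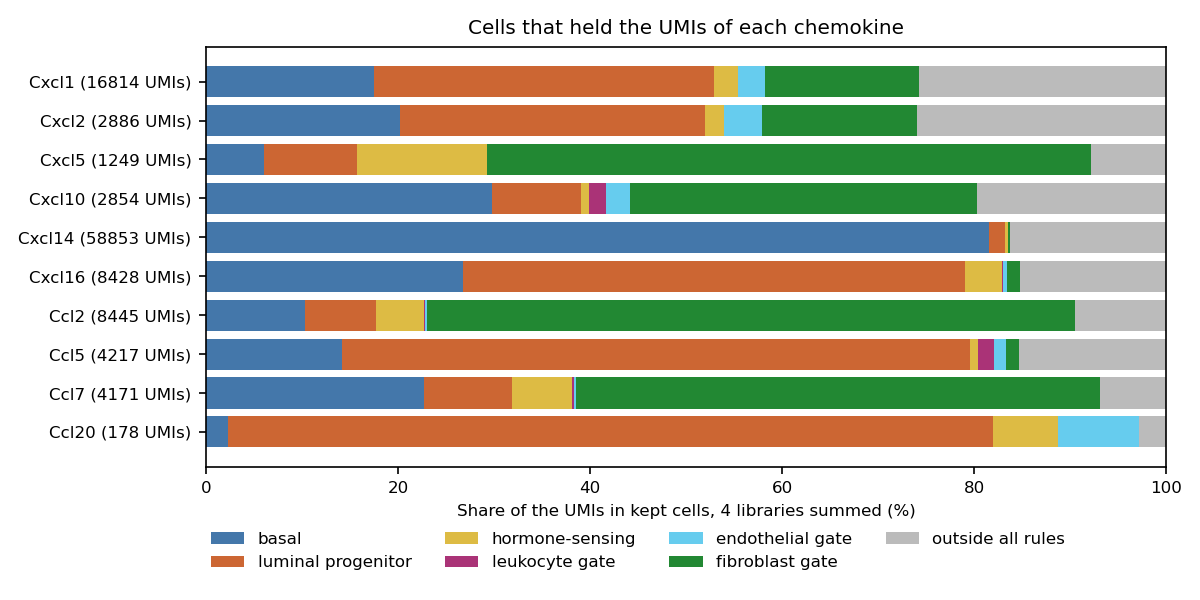
Share of each chemokine's UMIs (%) by the class or marker gate of the cells that held them, over 4 libraries, with the number of UMIs beside each name. Cxcl14 UMIs lay in basal cells and Ccl5 UMIs in luminal progenitors for the most part, while the fibroblast gate held 67.5% of the Ccl2, 62.9% of the Cxcl5 and 54.7% of the Ccl7 UMIs.

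The treatment contrast was tested on the class sums with all genes in each fit. In basal cells no gene of 10788 passed an adjusted p of 0.05 (0.0%), among them the 9 of 10 chemokines that could be tested; 465 genes (4.31%) had an unadjusted p under 0.05. Of the chemokines, 3 were among these with a higher value (2.13% of all genes) and 1 with a lower one (2.18%). Ccl5 had a log2 fold change (4OHT-labelled minus corn oil) of 2.50 with an SE of 0.49 (unadjusted p = 0.00174, adjusted p = 0.671, edgeR). The value for Cxcl2 was 1.94 (SE 0.60, adjusted p = 0.9995, edgeR), for Cxcl1 0.89 (SE 0.36, adjusted p = 0.9995, edgeR) and for Ccl2 −1.15 (SE 0.45, adjusted p = 0.9995, edgeR). Cxcl14 (0.05, SE 0.32) and Ccl7 (−0.28, SE 0.35) were within 1 SE of 0, and Cxcl16 was at 0.35 (SE 0.22), Cxcl10 at −0.76 (SE 0.64) and Cxcl5 at −1.0 (SE 0.89). Both 4OHT-labelled libraries were above both corn oil libraries for 4 of 9 chemokines (Cxcl1, Cxcl2, Cxcl16 and Ccl5; 13.0% of all genes) and below for 1 (Ccl2; 17.6%). The median log2 fold change of the 9 was 0.05, beside −0.02 over all genes.

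Whether basal Ccl5 passed depended on the tool. It did so with DESeq2 (log2 fold change 2.51, adjusted p = 0.000511), where 36 genes passed in all, and with edgeR without a filter on low counts (2.47, adjusted p = 2.7e-05), where 93 passed. Fits that left out 1 library rest on a lone library in 1 group, so only their values are given here. For basal Ccl5 the log2 fold change was 1.68 without 4OHT replicate 1 and 3.03 without 4OHT replicate 2. Leaving out cells with any leukocyte, endothelial or fibroblast marker UMI gave 2.18 (adjusted p = 0.583, edgeR). The basal Ccl2 difference was −1.63 without corn oil replicate 1 and −0.40 without corn oil replicate 2. Basal Cxcl2 passed without a filter (1.92, adjusted p = 0.00215, edgeR). It was 2.59 without 4OHT replicate 2 and 0.75 without 4OHT replicate 1. Basal Cxcl10 was −2.23 without 4OHT replicate 1 and −0.04 without 4OHT replicate 2.

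In luminal progenitors no gene of 10120 passed either (0.0%; DESeq2 1 gene, 166 genes or 1.64% at an unadjusted p under 0.05), and 9 of the 10 chemokines could be tested. An unadjusted p under 0.05 was found for 3 with a higher value (0.85% of all genes) and 1 with a lower one (0.791%). Cxcl1 had a log2 fold change of 1.33 with an SE of 0.28 (unadjusted p 0.00104, adjusted p = 1, edgeR), and Cxcl2 one of 1.27 with an SE of 0.33 (adjusted p = 1, edgeR). Without a filter on low counts 5 of the 10 chemokines passed among 39 genes: Cxcl1 (1.33, adjusted p = 0.0178, edgeR), Cxcl10, Ccl2, Ccl7 and Cxcl5, the last 3 with most of their 4OHT-labelled UMIs in the single cell named above. In the fits that left out 1 library, Cxcl1 did not pass, while some other chemokines did. Those fits rest on a lone library in 1 group, so passing is not read there. No chemokine passed with DESeq2 (Cxcl1 adjusted p = 0.176). The Cxcl1 value was between 1.14 and 1.56 in the fits that left out 1 library and at 1.36 without cells that held other cell types' markers. Cxcl10 was at −1.59 (SE 0.65, adjusted p = 1, edgeR), and −3.52 without 4OHT replicate 1. Ccl7 was at 3.24 (SE 1.29) and Ccl2 at 2.69 (SE 1.34). Without cells that held other cell types' markers they were −0.03 and −0.91, and without 4OHT replicate 1 −1.36 and −1.86. The part of the progenitors of that library with at least 10 Ccl2 or Ccl7 UMIs was not tested. Ccl5 (−0.23, SE 0.30), Cxcl14 (0.23, SE 0.29) and Cxcl16 (0.35, SE 0.26) had unadjusted p above 0.05. Both 4OHT-labelled libraries were above the corn oil libraries for Cxcl1, Cxcl2 and Cxcl16 (7.33% of all genes) and below for Cxcl10 and Ccl5 (17.5%).

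In hormone-sensing cells 1 gene of 7589 passed (0.0132%) and it was no chemokine; 240 genes (3.16%) had an unadjusted p under 0.05. None of the 8 chemokines tested was among these, higher (1.7% of genes) or lower (1.46%), and the groups overlapped for all 8 (4OHT-labelled libraries above for 17.0% of genes and below for 13.5%). Cxcl1 was at 0.19 (SE 0.54) and Cxcl16 at 0.14 (SE 0.40). Whether the treatment difference itself differed between progenitor and basal cells was tested with library as a block. No gene of 11434 passed (0.0%; DESeq2 1 gene; 429 genes or 3.75% at an unadjusted p under 0.05). The difference for Ccl5 was −2.64 (SE 0.55, unadjusted p 0.000633, adjusted p = 1, edgeR), lower in progenitors, and Ccl5 passed with DESeq2 (−2.65, adjusted p = 0.0237); without 4OHT replicate 1 it was −1.62 (adjusted p = 1, edgeR). Without a filter on low counts 55 of 18229 genes passed for this difference, among them 4 chemokines, Ccl5, Ccl2, Ccl7 and Cxcl5. For the last 3, most progenitor UMIs of 4OHT replicate 1 were in the single cell named above. For Cxcl1 it was 0.41 (SE 0.39) and for Cxcl2 −0.44 (SE 0.62), so that a difference between the classes was not detected for this pair.

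**Figure D4:**
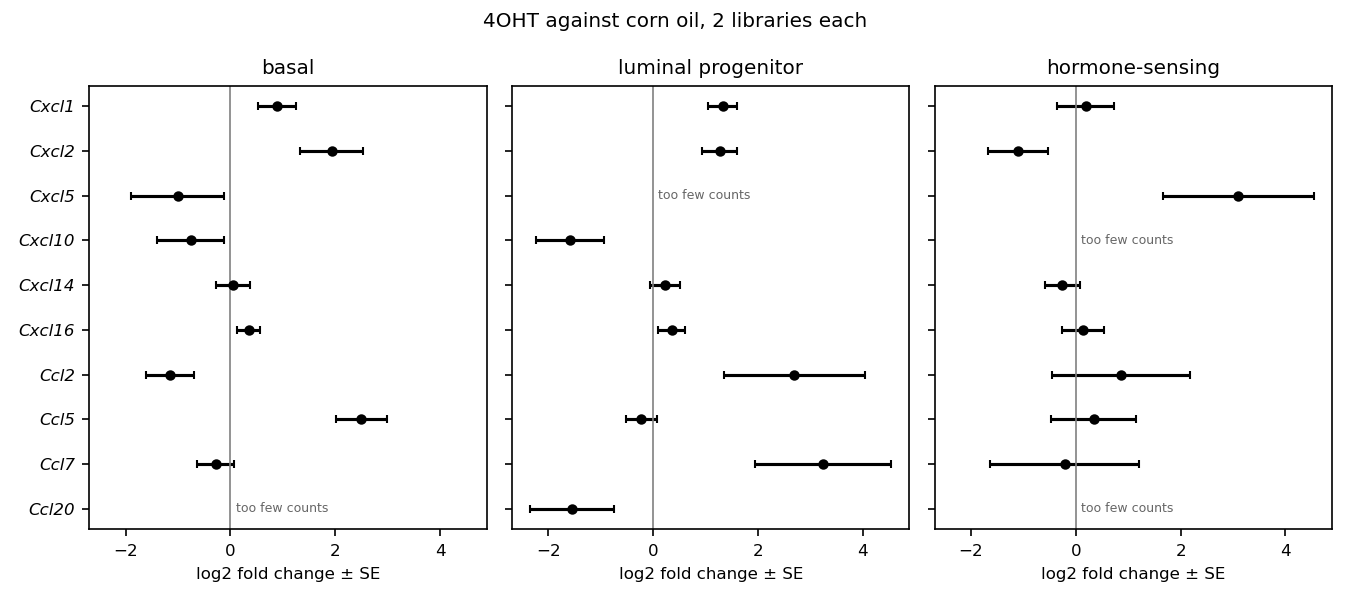
Log2 fold change, 4OHT-labelled against corn oil, with its standard error for each chemokine in the 3 epithelial classes (edgeR, 2 libraries per group). Cxcl1 and Cxcl2 lie above 0 in basal and progenitor cells, Ccl5 stands at 2.50 in basal cells and −0.23 in progenitors, and none of these values passed an adjusted p of 0.05.

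Other genes of the chemokine system were mostly too sparse to test. Of 36 other entries for chemokines, 7 could be tested in basal cells, and none passed. Ccl11, an eosinophil chemokine, was at 10.0 and 9.33 CPM in the corn oil libraries and 1.52 and 4.70 CPM in the 4OHT-labelled ones (log2 fold change −1.54, adjusted p = 0.9995, edgeR), and Cxcl12, the Cxcr4 ligand, at 38.4, 48.2, 54.1 and 63.9 CPM. Of 23 receptors, 5 could be tested in basal cells: Cxcr4, Cx3cr1, Ackr3, Ackr4 and Ccrl2. Cxcr2, the receptor of Cxcl1, was at 0.15 to 1.36 CPM there, and Ccr2 and Ccr6 had no basal UMI in any library. Cxcr4 was at 9.14, 3.82, 5.56 and 3.34 CPM. Ccrl2 was at 3.58 and 8.57 CPM in the corn oil libraries and at 21.7 and 10.6 CPM in the 4OHT-labelled ones in basal cells (1.42, SE 0.51, adjusted p = 0.9995, edgeR), and both 4OHT-labelled libraries were above both corn oil libraries. In progenitors Ccrl2 was at 31.9 to 35.2 CPM in all 4 libraries. Cx3cr1 was at 21.9 and 27.1 against 7.02 and 17.2 CPM in progenitors (−0.90, SE 0.44), and Ackr3 was below 3.2 CPM there; Ccl17 was at 20.1, 16.2, 12.6 and 10.8 CPM and Cxcl15 at 1.93, 14.7, 2.98 and 26.9 CPM.

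Genes of the NF-κB pathway were read in the same fits. Of the 16 genes of the NF-κB list, 14 had a positive log2 fold change in basal cells, with a median of 0.22 and none past the adjusted threshold. Nfkbia, the feedback inhibitor, was at 416 and 660 CPM in the corn oil libraries and at 910 and 1005 CPM in the 4OHT-labelled ones (0.87, SE 0.31), and Rel, a subunit, had 0.75 (SE 0.30). In progenitors 8 of 16 were positive, with a median of −0.02; Cebpb was at 2233, 490, 754 and 573 CPM and Cebpd at 0.42 (SE 0.35). Csf3 was at 13.2 and 10.6 against 46.2 and 34.2 CPM in basal cells (1.79, SE 0.27, adjusted p = 0.604, edgeR). Ptgs2, the inducible prostaglandin synthase, was at 15.9 and 13.8 against 42.4 and 42.0 CPM there (1.56, SE 0.26, adjusted p = 0.604, edgeR). Among the 12 basal genes tested of the cytokine list, 3 had an unadjusted p under 0.05, all higher. In progenitors Csf3 was at 59.4, 18.8, 86.0 and 108 CPM and Il33 at 0.41, 2.48, 2.26 and 6.44 CPM.

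Values of the preparation list were mostly above 0, as were those of Cxcl1 and Cxcl2. In basal cells 14 of its 16 genes had a positive value, with a median of 0.40 and 4 at an unadjusted p under 0.05; in progenitors 12 of 16 were positive, with a median of 0.32. Fos was at 171 and 298 against 530.4 and 535 CPM in basal cells (1.22, SE 0.33), and Egr1 at 85.8 and 143 against 315 and 219 CPM (1.24, SE 0.32). In progenitors Fos was at 0.77 (SE 0.31) and Egr1 at 0.77 (SE 0.29). Zfp36, in this list and in that for processing and decay, which encodes a protein that speeds the decay of many chemokine and cytokine transcripts, was at 119 and 204 against 406 and 259 CPM (1.06, SE 0.34). Of the 8 genes tested from the list for processing and decay, 2 were positive in basal cells; Sdc1 was at −0.54 (SE 0.24) there, and in progenitors Zfp36l1 was at −0.58 (SE 0.28) and Mmp2 at 0.93 (SE 0.57). The part of cell preparation in the Cxcl1 and Cxcl2 values was not tested.

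The interferon list stood on the other side, beside Cxcl10. In basal cells 17 of its 18 genes had a negative value, with a median of −1.54, and 14 had an unadjusted p under 0.05, though none passed the adjusted threshold. Both 4OHT-labelled libraries were below both corn oil libraries for 13 of the 18. Iigp1, a GTPase of cell defence, was at 97.9 and 101 CPM in the corn oil libraries and at 27.6 and 12.4 CPM in the 4OHT-labelled ones (−2.30, SE 0.35, adjusted p = 0.604, edgeR), and Ifi44 at 47.0 and 46.2 against 15.5 and 8.96 CPM (−1.91, SE 0.30, adjusted p = 0.604, edgeR). In progenitors 17 of 18 were negative as well, with a median of −0.61; Igtp was at 14.0 and 49.9 against 9.05 and 4.51 CPM and Irf7 at 72.4 and 81.9 against 43.6 and 28.3 CPM. Basal Cxcl10 had the same sign (−0.76, SE 0.64), but its value in 4OHT replicate 1 lay within the range of the corn oil libraries. In hormone-sensing cells, where 16 of the list were tested, 12 were negative with a median of −0.63, and Oasl2 (−1.01, SE 0.40) and Rsad2 (−1.26, SE 0.55) had the smallest p.

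In hormone-sensing cells the other lists gave few differences, and none of their genes passed the adjusted threshold. Cx3cl1, the ligand of Cx3cr1, was at 6.94 and 8.82 CPM in the corn oil libraries and at 16.7 and 16.1 CPM in the 4OHT-labelled ones (1.00, SE 0.41, adjusted p = 0.9997, edgeR), and Cxcl15 at 169.6 and 281 against 352 and 393 CPM (0.67, SE 0.32). Cx3cr1 itself, the only receptor that could be tested there, was at 311, 61.2, 261 and 139 CPM, which overlapped. Of the NF-κB list 7 of 14 were positive, with Cebpd at 0.78 (SE 0.31) and Cebpb at −0.71 (SE 0.36). Il33 was at 0.92 (SE 0.42), Cxadr at 0.53 (SE 0.41), Sdc1 at 0.65 (SE 0.26) and Elavl1 at −0.48 (SE 0.30). The heat shock gene Hspa1a of the preparation list was at 689 and 436 against 1189 and 1157 CPM (1.04, SE 0.26), and Socs3 at 239, 148, 230.5 and 413 CPM.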

How the data were processed

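The authors deposited raw UMI counts per gene and cell for each library, made with Cell Ranger 3.0.1 on mm10 after bcl2fastq, per the submitters' processing notes; use of strand and introns and the cell calling are not given in the sources used here. Cells with at least 1000 UMIs were kept. Basal cells had a Krt5, Krt14, Krt17 and Acta2 sum of at least 5 UMIs and over 3 times the Krt8, Krt18 and Krt19 sum, and luminal cells the reverse. Luminal cells with at least 3 UMIs of Ly6d, Fxyd2 and Gpx3, and more than of Wfdc18, Csn3 and Ltf, were called hormone-sensing, the others progenitors. Leukocyte, endothelial and fibroblast gates took other cells with at least 5 UMIs of one marker list and over 3 times each other list. No doublet caller was run; instead, fits were repeated without the 5% of cells with most UMIs and without cells holding markers of other types. Class sums per library were tested with edgeR 4.0.16 in R 4.3.3 (TMM, filterByExpr, quasi-likelihood F-test, Benjamini-Hochberg over all genes tested), with DESeq2 1.42.0 as an alternative. The labels do not tie each library to a mouse, so p-values measure only the spread between the 2 libraries of a group, and the labels give no batch or date. On simulated counts with 200 genes changed by a log2 of 2, the test recovered 78.0% among 10576 genes for the basal comparison, with 5 false calls, 69.0% among 9883 for progenitors, with 4, 75.0% among 7251 for hormone-sensing cells, with 11, and 78.0% among 11062 for the difference between classes, with 6. Recovery was not tested for genes that, like several of the chemokines, had most of their UMIs in a few cells. Shares of cells used cells thinned to 2000 UMIs, leaving out shallower ones, and their 95% intervals are exact (Clopper-Pearson). A count of 0 was taken to allow up to 3 counts. These ranges hold counting error alone. The 10 chemokines and all gene lists were chosen with earlier results of these data known. All 10 are named; of each list the 2 genes with the smallest p per class are named where none passed, and for each chemokine with at least 20 CPM in a class the 3 most alike genes. Cxcr2, Ccr2, Ccr6 and Dcn were named after their values were seen.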

Additional observations from a re-analysis of the deposited data

How the results depend on the processing

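The counts of genes past the threshold depended on the test. Without a filter on low counts, 93 basal, 39 progenitor and 59 hormone-sensing genes and 55 for the difference between classes passed; with DESeq2 36, 1, 1 and 1 did. Leaving out 1 library, with the lone library of a group assumed to vary like the others, gave 17 to 127 basal, 31 to 64 progenitor and 4 to 80 hormone-sensing genes and 0 to 63 for the difference between classes. The hormone-sensing count of 1 became 0 with a minimum of 2000 UMIs and also 0 without cells holding other cell types' markers. With the replicate block, 167 basal, 9 progenitor and 3 hormone-sensing genes passed, among them basal Ccl5 (2.45, adjusted p = 0.00175, edgeR) and progenitor Cxcl1 (1.34, adjusted p = 0.0239, edgeR). Libraries with the same replicate number deviated together (r = 0.558 across genes in basal, 0.317 in progenitor and 0.219 in hormone-sensing cells), but the labels give the number no meaning and there are only 2 pairs.

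Among treatment differences of the chemokines, 240 values under settings that kept all libraries had the same direction and side of the threshold, 15 the same direction but passed it, and 13 changed sign. Of the values that left out a library, 90 had the same direction and side, 27 the same direction but passed, and 27 changed sign. Without cells holding other cell types' markers the log2 fold change was −0.910 for progenitor Ccl2, −0.034 for progenitor Ccl7 and −0.210 for hormone-sensing Cxcl1, and the difference between classes was −0.180 for Cxcl1 and −0.022 for Cxcl14. Without the cells with most UMIs it was −0.681, −0.057 and −0.585 for the same first 3, and −0.271 for hormone-sensing Cxcl16. With a keratin ratio of 2 it was 2.402 for hormone-sensing Ccl7, −0.037 for basal Cxcl14 and 0.132 for hormone-sensing Cxcl14, and with a minimum of 2000 UMIs −0.002 for basal Cxcl14. Leaving out 1 library gave ranges across 0 in hormone-sensing cells for Ccl2 (−2.983 to 6.738), Ccl5 (−0.448 to 2.041), Ccl7 (−6.553 to 5.553), Cxcl1 (−0.600 to 1.266), Cxcl16 (−0.281 to 0.788) and Cxcl5 (−3.541 to 4.363). In progenitors the ranges were −1.864 to 5.567 for Ccl2, −2.650 to 0.270 for Ccl20, −0.587 to 0.068 for Ccl5 and −1.364 to 5.252 for Ccl7, and in basal cells −0.630 to 0.198 for Ccl7, −0.280 to 0.501 for Cxcl14 and −2.464 to 0.420 for Cxcl5. For the difference between classes they were −2.102 to 0.925 for Ccl20, −0.619 to 4.506 for Ccl7, −0.292 to 1.108 for Cxcl1, −0.113 to 0.458 for Cxcl14, −0.125 to 0.160 for Cxcl16 and −1.332 to 0.600 for Cxcl2. The cause was not tested; the single cells named above hold most of the luminal Ccl2, Ccl7 and Cxcl5 UMIs in their libraries. Class differences moved by more than the spread between libraries in 7 values and by less in 113. The 80 values that left out a library could not move by more than that spread. Each is a mean over libraries that also set the spread, so they say nothing about stability. Shares of cells moved by more than that spread in 55 of 90 values with another thinning depth or none.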
